A study of Mus musculus with 6 samples.

Results

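Gfap, Vim, Nes and Synm encode the intermediate filament proteins of astrocytes, and their 11 probe sets were followed in L1, the uppermost lumbar level of the cord, in mice carrying human pancreatic cancer cells. A probe set is a group of short array probes whose combined brightness gives 1 value for a transcript. All probe sets that the platform annotation pairs with 1 of these 4 symbols were taken, 11 of 45037 on the array and 4 of 18193 named genes, with 3 each for Gfap, Vim and Nes and 2 for Synm. Each is given separately, because probe sets of a gene read different stretches of its RNA and the brightness of different probe sets cannot be compared as RNA amount.

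The study used male SCID mice, which lack mature T and B lymphocytes but keep microglia and other innate cells, and which were 15 weeks old per the labels. In the N-inv model Capan-1 cells, a human pancreatic adenocarcinoma line, were injected inside the left sciatic nerve. In the SC model they were placed under the skin, and the PBS model was the vehicle control, for which the labels used here name no injection site. L1 cord was taken at 6 weeks and hybridised to 3' expression arrays, 2 arrays per group. Whether each array holds a different mouse is not stated in the labels, and the p-values then cover only the spread among these samples, which may be technical.

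Intermediate filaments are ropes of coiled-coil proteins that give a cell its mechanical strength. In astrocytes of the mature cord the main filament protein is GFAP, which is built together with vimentin, and a rise of GFAP is the usual histological sign that astrocytes react to injury or disease. Nestin and synemin cannot form filaments by themselves and join those made of vimentin. Both are known from immature neural cells and from reactive astrocytes. Vimentin is also made by endothelium, ependyma and fibroblasts of the meninges, and nestin by cells of vessel walls.

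The 2 SC arrays stood apart from the others. Each correlated less with the rest, at a median of 0.970 and 0.969, than the N-inv and PBS arrays, at 0.980 each. Actb control probes at the 3' end were brighter than those at the 5' end, a measure of RNA integrity, by a factor of 3.32 and 3.42 in N-inv, 3.81 and 4.70 in SC, and 3.05 and 3.57 in PBS. Xist, an RNA of female cells, measured 13065 in SC replicate 2 and 228.5 in SC replicate 1, against 138.6 to 173.5 over the N-inv and PBS arrays, although all mice are labelled male. Eif2s3y, a gene of the Y chromosome, measured 1344 in SC replicate 1 and 3152 in SC replicate 2, against 2369 to 2651 over the N-inv and PBS arrays, so SC replicate 2 was the highest of the 6 arrays in both. Gfap values that rest on the SC group are therefore also given without SC replicate 2, and those of the other members as ranges over left-out arrays, here or in the closing section. The presence of neural tissue was checked with 12 astrocyte markers, all of which lay above the brightness filter, with a lowest intensity of 1623 on any array. The 4 neuron markers and the 3 oligodendrocyte markers analysed here were likewise bright, at 7109 or more and at 1282 or more on every array. These markers do not check the label of L1 cord.

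Gfap, the main filament protein of mature astrocytes, had the largest differences of the 4 genes. Its 3 probe sets were between 2.38 and 2.72 times as bright in N-inv as in PBS, by the ratio of group means, and between 1.98 and 3.25 times as bright as in SC. In N-inv both arrays lay above all 4 other arrays in each of the 3 probe sets, a pattern found in 9.1% of all probe sets. The differences were nevertheless not called, since 0 of 27022 probe sets passed an adjusted p of 0.05 in any of the 3 comparisons. The adjustment is Benjamini-Hochberg over all probe sets tested, on limma's moderated test.

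The brightest Gfap probe set, 1440142_s_at, measured 20515 and 19208 in N-inv, 4640.4 and 15375 in SC, and 6665 and 7927 in PBS. All values are intensities in arbitrary units, with each array scaled to a common median of 256.2. The N-inv arrays lay close together and above the rest, whereas the SC arrays lay on either side of both PBS arrays. Group means were 19862 ± 925 in N-inv, 10008 ± 7590.3 in SC and 7296 ± 893 in PBS (SD, n = 2 each).

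The 1426508_at probe set of Gfap measured 20415 and 18171 in N-inv, 4085 and 8900.4 in SC, and 7707 and 8522 in PBS. The remaining one, 1426509_s_at, which shares its database accession in the annotation with 1426508_at, measured 17540.4 and 15401 in N-inv, 3054 and 7069.5 in SC, and 6197 and 6779.8 in PBS. From high to low the arrays stood in the same order in all 3 probe sets: both N-inv arrays, SC replicate 2, both PBS arrays, and SC replicate 1. The lower N-inv array was well above SC replicate 2 in 1426508_at and 1426509_s_at but nearer to it in 1440142_s_at, and SC and PBS overlapped in each.

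**Figure D1:**
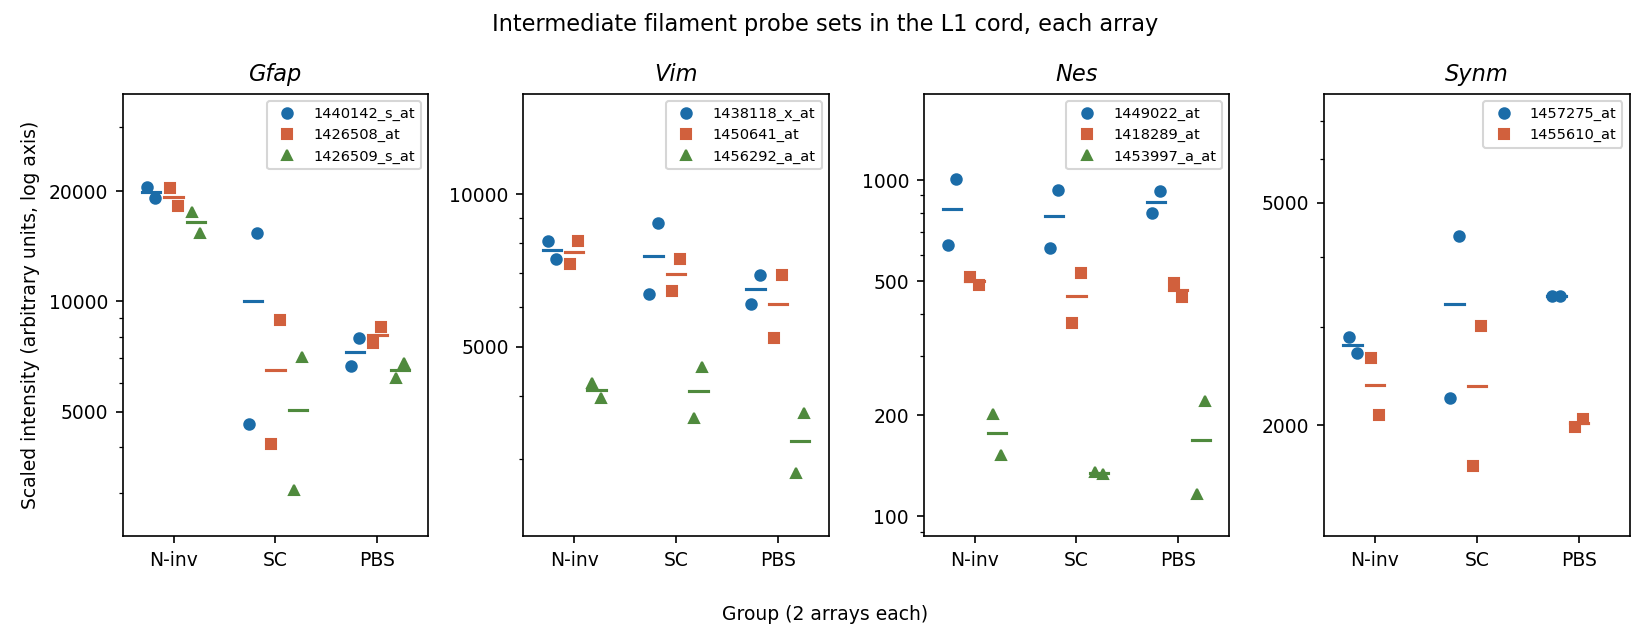
Scaled intensity (arbitrary units, log axis) of each probe set of Gfap, Vim, Nes and Synm in N-inv, SC and PBS, with 1 point per array and a line at the mean of the 2 arrays. All 3 Gfap probe sets lie between 15401 and 20515 in N-inv, above every SC and PBS array, while the groups of the other genes lie close together or overlap.

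On the fitted scale, log2(intensity + 25.6), 1440142_s_at differed between N-inv and PBS by 1.45 ± 0.50 (SE). The same quantity was 1.25 ± 0.35 for 1426508_at and 1.34 ± 0.37 for 1426509_s_at. Their unadjusted p-values in limma were 0.0254, 0.00982 and 0.00929, and their adjusted p was 1 for each. An unadjusted p under 0.05 was reached by 4.03% of all probe sets, and both N-inv arrays lay above both PBS arrays in 21.7%. By size, 18, 49 and 35 of the 27022 probe sets had a larger positive log2 difference than these 3. The standard error pools the spread of all 3 groups, and the spread of Gfap lay mostly between the SC arrays. With only N-inv and PBS in the fit the adjusted p was 0.534 for each Gfap probe set.

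Against SC, 1440142_s_at was 1.23 ± 0.50 higher in N-inv on the log2 scale (unadjusted p = 0.0465, adjusted p = 0.553 in limma). For 1426508_at the difference was 1.67 ± 0.35 (unadjusted p = 0.00229) and for 1426509_s_at it was 1.82 ± 0.37 (unadjusted p = 0.00202), with an adjusted p of 0.449 for both in limma. In this comparison 8.9% of probe sets had an unadjusted p under 0.05, and both N-inv arrays lay above both SC arrays in 23.7%. Without SC replicate 2 the 3 log2 differences came to 2.09, 2.23 and 2.42 (limma, adjusted p = 0.125, 0.0999 and 0.0999). Without SC replicate 1 they came to 0.37, 1.11 and 1.21 (limma, adjusted p = 0.402, 0.150 and 0.144).

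Between SC and PBS the Gfap probe sets differed in sign. The log2 difference was 0.22 ± 0.50 for 1440142_s_at, -0.42 ± 0.35 for 1426508_at and -0.48 ± 0.37 for 1426509_s_at, with adjusted p of 0.955, 0.827 and 0.815 in limma. In SC replicate 1 all 3 lay below the PBS mean, with log2 deviations of -0.64, -0.98 and -1.08. In SC replicate 2 they lay 1.08, 0.13 and 0.12 above it, so the arrays of this group went opposite ways and the sign depended on which was used. In this comparison 7.88% of probe sets had an unadjusted p under 0.05 and no member was among them. The SC arrays overlapped the PBS arrays in all 11 probe sets, while they lay above in 14.2% and below in 20.2% of all probe sets.

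The 3 Gfap probe sets did not report SC replicate 2 alike. The ratio of 1440142_s_at to 1426508_at within an array was 1.005 and 1.06 in N-inv, 1.14 and 1.73 in SC, and 0.865 and 0.930 in PBS. The ratio of 1426508_at to 1426509_s_at spanned a narrower range, from 1.16 to 1.34 over the 6 arrays. SC replicate 2 was also the array with the highest Actb 3' to 5' ratio, 4.70. The same ratio of Gapdh did not single it out, at 3.12 and 3.38 in N-inv, 3.52 and 3.38 in SC, and 2.82 and 3.02 in PBS. Their part in the Gfap ratio was not tested.

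In pieces of whole tissue, more astrocytes and more Gfap RNA per astrocyte cannot be told apart. The other astrocyte genes can be set beside it. The 12 astrocyte markers, which included the glutamate transporter Slc1a2, the water channel Aqp4 and the gap junction protein Gja1, had a median log2 difference of 0.09 between N-inv and PBS, with 9 of 12 higher. Over all 12626 genes tested this median was 0.04, with 7571 higher. Slc1a2, Aqp4 and Gja1 were among the 9, at 0.19, 0.26 and 0.07. The 3 lower were Slc1a3 at -0.29, Gjb6 at -0.02 and Slc7a10 at -0.01. Both N-inv arrays lay above both PBS arrays in 5 of the 12, against 25.2% of all genes. They lay below in 1, Slc1a3, against 12.6%. The summed intensity of the 12 markers ranged from 277164 to 287251 in N-inv, from 227124 to 275541 in SC and from 245175 to 260805 in PBS. Against SC the 12 markers had a median log2 difference of 0.15, against 0.06 over all genes. The summed intensity of 6 microglial markers ranged from 20988 to 25211 in N-inv. It ranged from 13213 to 14836 in SC and from 15847 to 16502 in PBS. Most of this sum was Csf1r, which measured 21215 and 16870 in N-inv, 10709 and 13320 in SC, and 13336 and 13684 in PBS. Itgam, below the filter, was lower in N-inv than in PBS, at 120.0 and 105.4 against 125.7 and 122.8. The 5 microglial genes above the filter were all higher in N-inv than in PBS, with a median log2 difference of 0.50. Of these, Aif1 lay below the filter cutoff in SC replicate 2, at 149.2. Against SC the microglial median was 1.15, and other lists also differed from the 0.06 over all genes, with a median of 0.74 for the 3 oligodendrocyte markers and 2.18 for the single Schwann cell marker. Between SC and PBS these 3 values were -0.22, -0.57 and -2.87. The Schwann cell marker Pmp2 measured 848 and 549 in N-inv, 376 and 35.5 in SC, and 932 and 1336 in PBS. Its SC replicate 2 value lay below the filter cutoff of 155.5. The oligodendrocyte markers did not move alike. In N-inv against SC, Mog and Mag differed by 0.92 and 0.74 and Mbp by -0.08. In SC against PBS they differed by -1.02, -0.57 and 0.18. The part of these cells in the Gfap values was not tested.

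**Figure D2:**
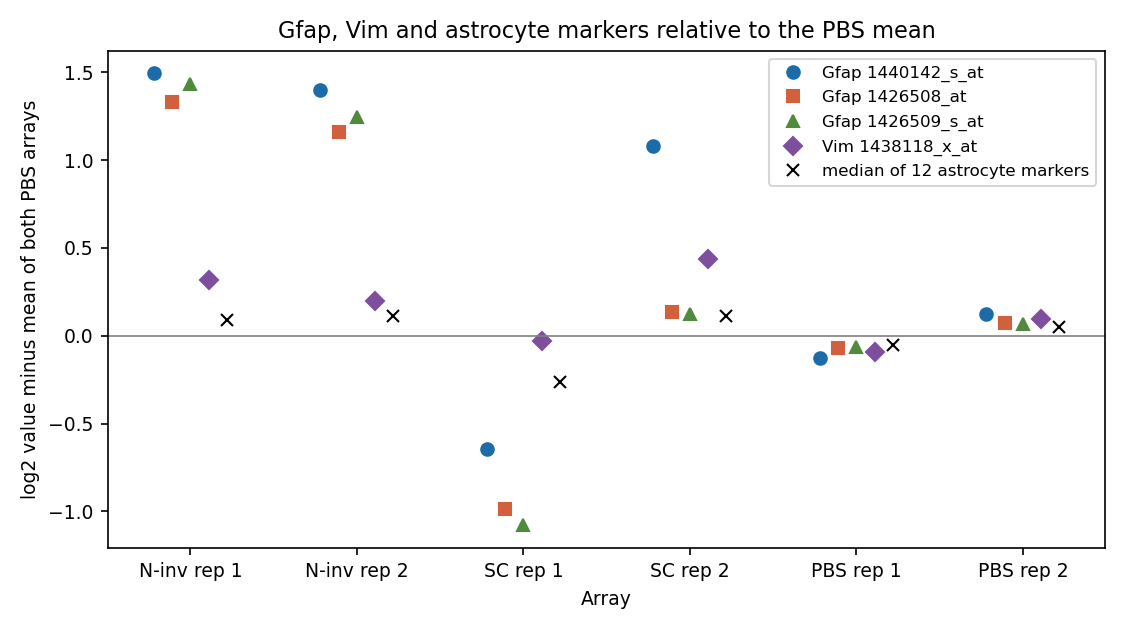
Log2 value of each array minus the mean of both PBS arrays, for the 3 Gfap probe sets, the brightest Vim probe set and the median of 12 astrocyte markers. Gfap lies between 1.16 and 1.49 in the N-inv arrays, where the marker median lies at 0.09 and 0.11, and SC replicate 2 splits the Gfap probe sets.

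The sequence before the start of transcription is given for Gfap and for Vim, the pair that builds the astrocyte filament. These are the 250 bases upstream of the start in RefSeq (GRCm38.p6), 5′ to 3′ on the strand of the gene, at chr11:102897201-102897450 on the minus strand for Gfap and chr2:13574061-13574310 on the plus strand for Vim. Capitals mark matches, on either strand, to any of 5 searched motifs. These were the TATA box TATAAA, the CCAAT box of many promoters, the GC box GGGCGG, the core TTCNNNGAA that STAT factors bind, and the full palindrome of nuclear factor I.
Gfap: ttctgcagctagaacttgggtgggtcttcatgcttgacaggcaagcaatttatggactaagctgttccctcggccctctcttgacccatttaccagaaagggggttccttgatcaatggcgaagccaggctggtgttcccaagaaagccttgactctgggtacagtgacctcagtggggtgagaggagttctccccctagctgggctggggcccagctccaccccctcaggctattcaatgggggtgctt
Vim: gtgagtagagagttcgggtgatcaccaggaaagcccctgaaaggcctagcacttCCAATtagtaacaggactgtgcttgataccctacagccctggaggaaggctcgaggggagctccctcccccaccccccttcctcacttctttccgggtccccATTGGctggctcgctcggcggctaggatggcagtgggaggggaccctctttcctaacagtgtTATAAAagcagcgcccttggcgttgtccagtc
The Vim window held TATAAA 32 bases before the start and CCAAT, on either strand, at 196 and 94 bases before it. The Gfap window held none of the 5 motifs, which says only that these letters are not in this window. Of 32851 such windows 12.4% held the TATA box, 33.8% the CCAAT box, 32.7% the GC box and 7.02% the STAT core. The nuclear factor I palindrome was in 0.0365% of them. The motifs do not overlap each other in these 2 windows.

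Vim was higher in N-inv than in PBS by a much smaller amount, and its 3 probe sets did so alike. The brightest, 1438118_x_at, measured 8098.5 and 7442 in N-inv, 6345 and 8783 in SC, and 6077 and 6919.8 in PBS. The 1450641_at probe set measured 7278 and 8079.97 in N-inv, 6454 and 7459 in SC, and 5215 and 6939.5 in PBS. The dimmest, 1456292_a_at, measured 4247 and 3968 in N-inv, 3616 and 4559.6 in SC, and 2825 and 3697 in PBS. In the annotation it shares its database entry with 1438118_x_at.

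In all 3 Vim probe sets both N-inv arrays lay above both PBS arrays, as did 21.7% of all probe sets, and the SC arrays overlapped both other groups. The log2 differences between N-inv and PBS were 0.26 ± 0.21, 0.35 ± 0.20 and 0.34 ± 0.21 (SE), with unadjusted p from 0.126 to 0.251 and adjusted p of 1 throughout in limma. They came to 0.17, 0.14 and 0.15 without PBS replicate 1 and to 0.35, 0.55 and 0.54 without PBS replicate 2. Between SC and PBS they were 0.20, 0.20 and 0.33, with a lowest adjusted p of 0.763 and a range of 0.13 to 0.52 over left-out arrays for 1456292_a_at, so the SC means too lay above PBS. Between N-inv and SC they were 0.06, 0.14 and 0.02, with a lowest adjusted p of 0.886 in limma and a range of 0.040 to 0.25 over left-out arrays for 1450641_at. The difference of 1456292_a_at against SC changed sign with the scaling, to -0.04 for the values as deposited and -0.06 after quantile normalization. The Gfap differences between the tumour sites were larger in size than those of Vim, which was not itself tested.

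Markers of other cells that make vimentin were read beside it. The 4 endothelial genes above the filter had a median log2 difference of 0.32 between N-inv and PBS, with 3 higher and 1 lower. Cdh5, Cldn5 and Tek differed by 0.72, 0.56 and 0.07 and Flt1 by -0.22. The tight junction gene Cldn5 measured 2280 and 4126 in N-inv, 2348 and 3127 in SC, and 2002 and 2137 in PBS. The summed intensity of the 5 endothelial genes measured ranged from 4257 to 6739.5 in N-inv, from 4431 to 5320.5 in SC and from 4033 to 4581 in PBS. The 5 fibroblast genes had a median of -0.13 and the 7 genes of pericytes and smooth muscle one of 0.07. The 4 ependymal genes above the filter had a median of -0.63, with 3 of 4 lower in N-inv. Pecam1, an endothelial marker, was below the filter, at 11.2 and 131.8 in N-inv, 169.7 and 189.2 in SC, and 32.3 and 27.5 in PBS. The ependymal markers Foxj1 and Tmem212 were below it too. The part of these cells in the Vim values was not tested.

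Nes, the filament protein of neural progenitors and vessel-wall cells, showed no common direction between N-inv and PBS. Its brightest probe set, 1449022_at, measured 639.4 and 1006 in N-inv, 628 and 935.9 in SC, and 800.3 and 926.5 in PBS. The 1418289_at probe set measured 514.7 and 488 in N-inv, 376 and 529 in SC, and 492.8 and 448.3 in PBS. The dimmest Nes probe set, 1453997_a_at, measured 201.5 and 152.1 in N-inv, 135.6 and 133.2 in SC, and 116.5 and 220.3 in PBS. All 3 overlapped between N-inv and PBS, with log2 differences of -0.10 ± 0.28, 0.09 ± 0.20 and 0.10 ± 0.28 (SE). The last probe set passed the filter on its mean over the 6 arrays, 159.8 against a cutoff of 155.5, with 2 of 6 arrays above the cutoff.

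Against SC the 3 Nes probe sets were 0.06 ± 0.28, 0.16 ± 0.20 and 0.33 ± 0.28 higher in N-inv, with a lowest adjusted p of 0.787 in limma. In 1453997_a_at alone both N-inv arrays lay above both SC arrays, as in 23.7% of all probe sets. Its log2 difference ranged from 0.15 to 0.51 over left-out arrays. Both SC arrays and N-inv replicate 2 lay below the filter cutoff of 155.5 in this probe set. Between SC and PBS the 3 Nes probe sets differed by -0.16 ± 0.28, -0.07 ± 0.20 and -0.22 ± 0.28, with a lowest adjusted p of 0.896 in limma. The sign of the brightest probe set between N-inv and PBS depended on single arrays, with a difference of 0.22 without N-inv replicate 1.

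Synm encodes synemin, a large protein that links vimentin and desmin filaments to other parts of the cytoskeleton, and its 2 probe sets went opposite ways. The brighter, 1457275_at, measured 2884 and 2692 in N-inv, 2241 and 4359.96 in SC, and 3404 and 3410.1 in PBS. The other, 1455610_at, measured 2641 and 2089 in N-inv, 1691 and 3013 in SC, and 1989.99 and 2051 in PBS. In N-inv both arrays lay below both PBS arrays in the first, as in 14.6% of all probe sets. They lay above both in the second, as in 21.7%.

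The log2 difference of 1457275_at between N-inv and PBS was -0.29 ± 0.30 and that of 1455610_at was 0.21 ± 0.29 (SE). Both had an adjusted p of 1 in limma. The second came to 0.048 without N-inv replicate 1 and 0.38 without N-inv replicate 2. Within an array, the ratio of the first to the second was 1.09 and 1.29 in N-inv, 1.33 and 1.45 in SC, and 1.71 and 1.66 in PBS, so the groups did not overlap in this ratio. This ratio was chosen after its values were seen and was not tested. Against SC the log2 differences were -0.17 and 0.06 and between SC and PBS they were -0.12 and 0.16, with a lowest adjusted p of 0.919 and 0.936 in limma. SC replicate 2 was the brightest of the 6 arrays and SC replicate 1 the dimmest in both Synm probe sets, so the SC mean describes neither array.

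**Figure D3:**
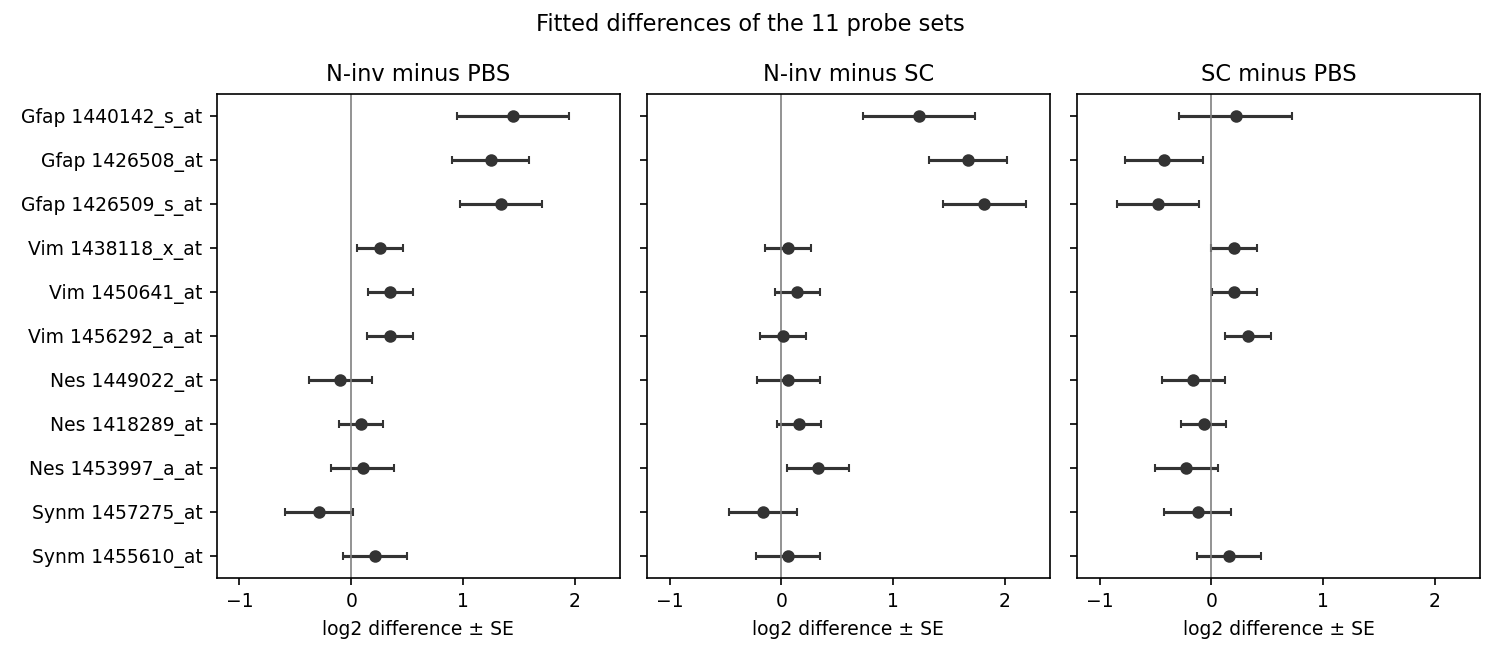
Fitted log2 differences of the 11 probe sets, with bars of 1 SE, for N-inv minus PBS, N-inv minus SC and SC minus PBS. The Gfap probe sets lie between 1.23 and 1.82 in both comparisons of N-inv, and the 8 probe sets of Vim, Nes and Synm lie between -0.29 and 0.35 in every comparison.

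The genes that work with these filaments were read from 5 lists, and 0 of their members were called in any comparison, as were 0.0% of all genes. Among other cytoplasmic filament proteins 5 of 9 genes lay above the filter, all of them neuronal, and all 5 were higher in N-inv than in PBS with a median log2 difference of 0.08, against 0.04 over all 12626 genes. Both N-inv arrays lay above both PBS arrays in 4 of them, against 25.2% of all genes. Prph, the peripherin of neurons with axons in peripheral nerves, led with 6654 and 5175 in N-inv, 3167 and 5224 in SC, and 4560.3 and 3700.2 in PBS. Its log2 difference between N-inv and PBS was 0.51 ± 0.28 (SE). The differences of Nefm and Nefh, subunits of the neurofilament, were 0.12 and 0.05, and that of Ina, another neuronal filament subunit, was 0.08. Des, Krt8, Krt18 and Krt19, filaments of muscle and epithelium, were below the filter.

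Of 8 genes for filament linkers and chaperones 7 lay above the filter, and all 7 were higher in N-inv than in PBS. In 5 both N-inv arrays lay above both PBS arrays, against 25.2% of all genes. Their median was 0.18, and 3 had an unadjusted p under 0.05, against 3.33% of all genes. Sync, which encodes syncoilin, a filament protein first known from muscle, measured 229.9 and 247.6 in N-inv, 172.2 and 249.4 in SC, and 118.3 and 142.2 in PBS. Its log2 difference between N-inv and PBS was 0.77 ± 0.21 (SE). Both PBS arrays of Sync lay below the filter cutoff of 155.5, so it passed through the N-inv and SC arrays. Its place in these counts is therefore not independent of the filter. Hspb1, a small heat shock protein that binds filaments, measured 4568 and 4947 in N-inv, 3737 and 4991 in SC, and 3025 and 3149 in PBS, a difference of 0.62 ± 0.19. Dsp, which encodes desmoplakin, a linker of filaments to cell junctions, measured 506.8 and 488.9 in N-inv, 151 and 341.7 in SC, and 134.4 and 301.3 in PBS, a difference of 1.19 ± 0.43. In Dsp SC replicate 1 and PBS replicate 1 lay below the filter cutoff. Dst, a giant linker between filament systems, differed by 0.18 ± 0.16. In SC against PBS 4 of the 7 genes were higher and 3 lower, with 0.59 for Sync, 0.48 for Hspb1 and 0.16 for Dsp, and with -0.42 for Cryab, another small heat shock protein, and -0.19 for Plec, the linker plectin. Unadjusted p-values in limma were 0.0278 for Sync, 0.0412 for Hspb1 and 0.0443 for Cryab.

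Genes that regulate Gfap act in the pathway in which interleukin-6 type cytokines signal through JAK kinases to STAT3, or are transcription factors of astrocytes. Of 14 listed genes 12 lay above the filter, 9 were higher and 3 lower in N-inv than in PBS, the median was 0.09, and in 6 both N-inv arrays lay above both PBS arrays. Over all 12626 genes 7571 were higher, and both N-inv arrays lay above both PBS arrays in 25.2%. Socs3, a feedback inhibitor that STAT3 induces, measured 988.3 and 733.8 in N-inv, 569 and 992.7 in SC, and 334.5 and 347.6 in PBS. Osmr, the receptor of oncostatin M, measured 1625 and 1525 in N-inv, 826.5 and 1334 in SC, and 782 and 851.1 in PBS. Their log2 differences between N-inv and PBS were 1.26 ± 0.28 and 0.93 ± 0.24 (SE), with unadjusted p of 0.00355 and 0.00707 and adjusted p of 1 in limma. Stat3 itself differed by 0.26 ± 0.18, and Cntfr, the receptor of ciliary neurotrophic factor, by -0.50 ± 0.32.

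Unlike Gfap, Socs3 was high in both tumour groups, since all 4 N-inv and SC arrays lay above both PBS arrays. Its log2 difference between SC and PBS was 1.09 (unadjusted p = 0.00737 in limma), and between N-inv and SC it was 0.17. For Osmr these differences were 0.36 and 0.57. Both arrays of SC lay above both of PBS in 13.7% of all genes.

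The nuclear lamins and the enzymes that modify filaments showed no common direction. Lmnb1 and Lmnb2, lamins of the inner nuclear membrane, differed between N-inv and PBS by -0.27 ± 0.18 and -0.31 ± 0.19 (SE) and Lmna by 0.10 ± 0.21. In 2 of these 3 genes both N-inv arrays lay below both PBS arrays, against 12.6% of all genes. Of 11 genes for kinases, proteases and a deiminase that act on filaments 6 lay above the filter, 3 higher and 3 lower, with a median of -0.02. Those with the smallest p were Rock1, a kinase that phosphorylates GFAP and vimentin, at -0.43 ± 0.23, the caspase Casp6 at 0.35 ± 0.19, and the calpains Capn2 and Capn1 at 0.19 ± 0.24 and -0.12 ± 0.25.

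**Figure D4:**
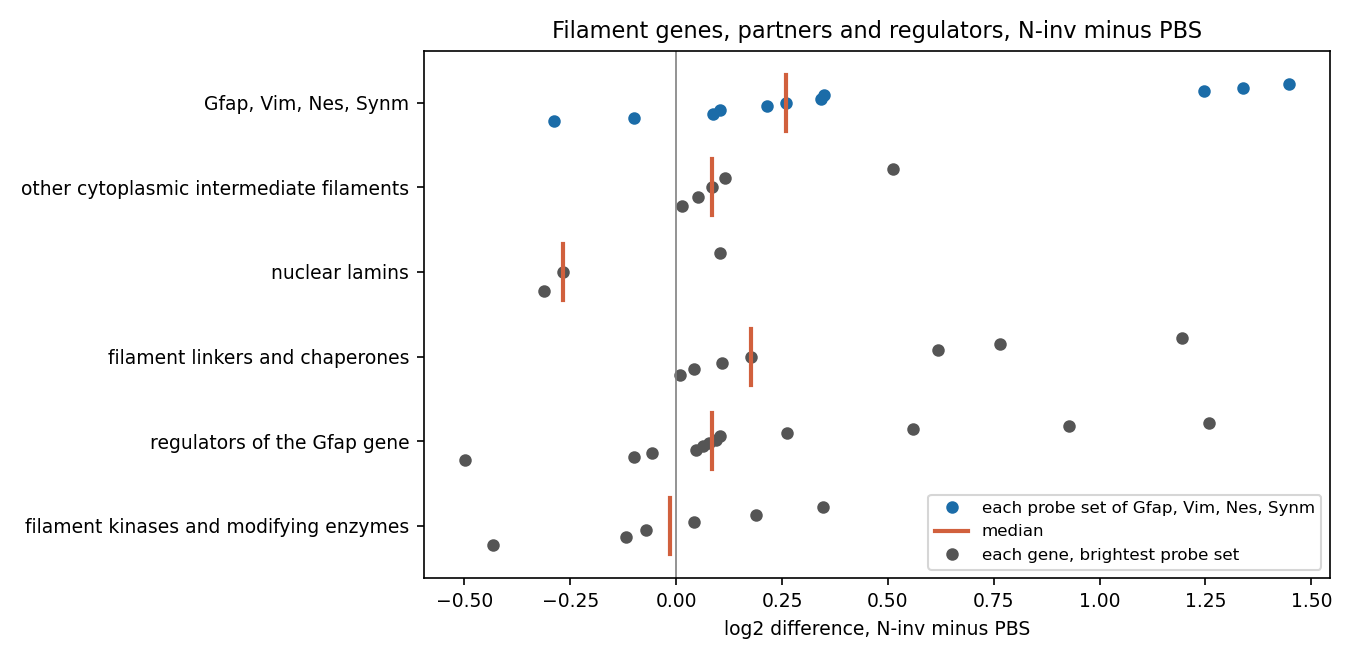
Log2 difference between N-inv and PBS of each probe set of Gfap, Vim, Nes and Synm and of each gene in the 5 lists that lay above the filter, with the median of each row as a bar. Gfap lies at 1.25 to 1.45, Socs3 at 1.26 and Dsp at 1.19, and the list medians lie between -0.27 and 0.18.

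The genes whose pattern over the 6 arrays was most like that of the brightest Gfap probe set were sought among 12622 other genes. The measure was the root mean square difference between centred log2 values, where 0 is an identical pattern. For 1440142_s_at, whose own root mean square about its mean was 0.812, the nearest genes were Gal (0.216), Serpina3n (0.220), Pdyn (0.224), Aspg (0.279), Dsp (0.316) and Il1r1 (0.343). Gal and Pdyn encode the precursors of the neuropeptides galanin and dynorphin, Serpina3n a protease inhibitor and Il1r1 the interleukin-1 receptor. Pdyn measured 367.7 and 445.7 in N-inv, 96.4 and 378.7 in SC, and 186.6 and 152.2 in PBS. Il1r1 measured 628.7 and 432.4 in N-inv, 194 and 509.3 in SC, and 160.6 and 320.7 in PBS. Like that Gfap probe set, all 6 genes were higher in SC replicate 2 than in SC replicate 1, so the likeness rests on the SC arrays as well as on N-inv. In SC replicate 2 that probe set lay 1.08 above the PBS mean on the log2 scale, against 0.13 and 0.12 for 1426508_at and 1426509_s_at. Likeness to those probe sets was not computed. Genes nearest to the other members were Nlgn3, Arih2 and Arrb1 for Vim, Klhl18, Zfp60 and Osbp2 for Nes, and Rbm4b, Calcb and Usp2 for Synm. Their distances lay between 0.0256 and 0.0664, in patterns whose own root mean square was 0.186, 0.259 and 0.301 for Vim, Nes and Synm.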

How the data were processed

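L1 cord RNA of 6 arrays in 3 groups was labelled in 2 cycles from 100 ng of total RNA, per the labels' protocols. The authors deposited linear probe set intensity values, 1 column per array. Each deposited column had a 2% trimmed mean of 1000, so the arrays had been scaled before deposit. The method of probe summary and a genome build are not given in the sources used here.

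Of 45101 probe sets 64 controls were left out. The platform annotation gave 1 symbol for 34945, several for 932 and none for 9160. Arrays were brought to 1 median, 256.2, and 25.6 was added before log2, so folds of dim genes are understated. The 27022 probe sets with a mean above the 40th percentile (155.5) were kept, and a list gene is its brightest probe set. limma 3.58.1 in R 4.3.3 fitted 1 mean per group over all 6 arrays, two-sided, with 3 residual and 3.59 prior degrees of freedom and Benjamini-Hochberg adjustment. With 2 arrays a side the smallest p of an exact permutation test is 0.333, so none was used. The script was tested on simulated data. The number of arrays limits the precision.

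Members and lists were chosen with earlier results of these data known. Named list genes are the 4 with the smallest p in N-inv against PBS. Like genes are the 6 nearest to Gfap and 3 nearest to each other member, with each member read from its brightest probe set. Listed genes that matched no probe set were not analysed here. The Schwann cell and proliferating cell markers, with 1 gene each above the filter, had log2 differences of -0.69 and -0.34 between N-inv and PBS. Other scalings, pseudocounts, filters, variance models, sample sets, the replicate block and each left-out array were tried as alternatives.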

Additional observations from a re-analysis of the deposited data

How the results depend on the processing

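The 33 log2 differences of the 11 probe sets were recomputed under 15 alternatives, 492 values in all, and 0 were called in any. Of these 464 kept their sign and 28 changed it, 24 of them when 1 array was left out. Alternatives that change only the filter, the variance model, the replicate block or the group not compared cannot move a log2 difference. Their signs were kept by construction, so the count of kept signs overstates the stability. The 90 recomputed values of Gfap in N-inv against PBS or SC were all positive, such unmoved values included. A filter at the 60th percentile left out Nes 1453997_a_at. With values as deposited, Vim 1456292_a_at in N-inv against SC was at -0.037, and with quantile normalization it was at -0.061, Nes 1449022_at at -0.0075 and Synm 1455610_at at -0.0071. Leaving out each array in turn gave these ranges of the differences that changed sign. In N-inv against PBS, Nes 1449022_at ranged from -0.42 to 0.22 and Nes 1453997_a_at from -0.29 to 0.50. In N-inv against SC, Vim 1438118_x_at ranged from -0.18 to 0.29, Vim 1456292_a_at from -0.15 to 0.18, Nes 1449022_at from -0.25 to 0.38, Nes 1418289_at from -0.074 to 0.39, Synm 1457275_at from -0.64 to 0.31 and Synm 1455610_at from -0.36 to 0.47. In SC against PBS, Gfap 1440142_s_at ranged from -0.64 to 1.08, Gfap 1426508_at from -0.98 to 0.13, Gfap 1426509_s_at from -1.08 to 0.12, Vim 1438118_x_at from -0.031 to 0.44 and Vim 1450641_at from -0.00021 to 0.41. There Nes 1449022_at ranged from -0.44 to 0.12, Nes 1418289_at from -0.30 to 0.16, Nes 1453997_a_at from -0.62 to 0.17, Synm 1457275_at from -0.60 to 0.35 and Synm 1455610_at from -0.25 to 0.57. The cause was not tested.

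The count of probe sets called, 0 in each comparison with 1089, 2406 and 2129 at an unadjusted p under 0.05 in limma in the order N-inv to PBS, N-inv to SC and SC to PBS, was 1 and 2 with an intensity trend in the first and second. It was 1 in N-inv against PBS with only the groups compared. Leaving out each array gave 0 to 1, 0 to 2 and 0 to 10, the highest of each without SC replicate 1 and, for N-inv against PBS, also without SC replicate 2. With the replicate number as a block 0 were called in each comparison. Deviations of same-numbered arrays from their group means correlated at 0.010, -0.032 and 0.037. No shared effect of the replicate number was seen, but this cannot tell whether the arrays were paired in the experiment. Signal over background limits Nes 1453997_a_at, near the filter cutoff. Among list, marker and like genes that passed the filter, Sync, Dsp, Pmp2, Pdyn, Aif1, Ccdc153, Rsph1, Dynlrb2 and Top2a also had arrays below that cutoff.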
